A study of Homo sapiens with 6 samples.

Results

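Each array held 47231 probes, with 20046 named genes among them. The group labelled polyadenylated histone transcripts was followed with 8 probes for 7 replication-dependent histone genes. The probes were picked by identifier, and in the current annotation they belong to HIST1H1C (H1-2), HIST1H2BK (H2BC12), HIST1H2BD (H2BC5, with 2 probes), HIST2H2BE (H2BC21), HIST2H2AC (H2AC20), HIST2H2AA3 (H2AC18) and HIST1H4H (H4C8). The study knocked down TARDBP in SK-Hep1, an adherent line established from a human liver cancer, and measured total RNA on Illumina HT-12 bead arrays. The 6 arrays held 3 samples treated with siRNA against TARDBP (siTARDBP) and 3 labelled control and named siLuc, all of the same line. TARDBP encodes TDP-43, a nuclear protein that binds RNA and takes part in splicing and RNA stability. The sources used here do not state the time after transfection, the siRNA sequences or whether the 3 samples of a group were separate cultures. The p-values therefore measure only how far these samples differ, and that spread may be technical.

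Replication-dependent histone genes supply the core and linker histones that package newly made DNA, and most of their mRNA is made in S phase. These mRNAs normally end in a short stem-loop that is bound by the stem-loop binding protein SLBP, and they carry no poly(A) tail. Several of the genes also give rise to polyadenylated mRNAs, which are known to persist outside S phase and in cells that leave the cell cycle. The labelling kit named in the labels primes from poly(A) tails, so transcripts that end in the stem-loop are expected to be copied poorly.

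The 8 probes were chosen with earlier results of these data known, so their detection is no test of the label of the gene group. All 8 probes exceeded the estimated background level on all 3 siTARDBP and all 3 siLuc arrays, so none entered the test through only a single group. Of the 71 other probes on the array for replication-dependent histone genes, 15 passed the filter on dim probes and 55 exceeded background on no array. Among those 55 was the third HIST1H2BD probe, ILMN_1777405, which is annotated to a different transcript of the gene and had raw intensities of 65.7 ± 6.46 in siTARDBP and 59.4 ± 8.93 in siLuc (mean ± SD, n = 3 each). The probe sequences were not used here, so the arrays cannot show whether a signal came from a polyadenylated or a stem-loop transcript. Probes of near-identical paralogs may also share signal, above all HIST2H2AA3 and its copy HIST2H2AA4.

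The start-site windows of 4 of the genes are shown because they belong to the members with the lowest p-values (HIST1H2BK and HIST2H2AA3), to a pair of members that share an intergenic region (HIST2H2BE with HIST2H2AC) and to the linker histone. The windows run from 250 bases before to 50 bases after the annotated start and are RefSeq sequences of GRCh38.p14, written 5′ to 3′ on the gene's strand. Capitals mark matches on either strand to the octamer ATTTGCAT, which is known from H2B promoters, to the TATA box TATAAA, to the CCAAT box CCAAT and to the H1 box AAACACA. Overlapping matches are printed as a single run of capitals.
HIST1H2BK, chr6:27146809-27147108, minus strand: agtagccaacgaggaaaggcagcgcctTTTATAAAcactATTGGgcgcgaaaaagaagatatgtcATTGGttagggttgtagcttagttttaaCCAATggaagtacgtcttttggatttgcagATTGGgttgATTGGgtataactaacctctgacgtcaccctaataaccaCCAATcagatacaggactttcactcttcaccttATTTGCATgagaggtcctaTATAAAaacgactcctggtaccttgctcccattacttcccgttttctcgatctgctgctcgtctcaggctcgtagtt
HIST2H2AA3, chr1:149842701-149843000, minus strand: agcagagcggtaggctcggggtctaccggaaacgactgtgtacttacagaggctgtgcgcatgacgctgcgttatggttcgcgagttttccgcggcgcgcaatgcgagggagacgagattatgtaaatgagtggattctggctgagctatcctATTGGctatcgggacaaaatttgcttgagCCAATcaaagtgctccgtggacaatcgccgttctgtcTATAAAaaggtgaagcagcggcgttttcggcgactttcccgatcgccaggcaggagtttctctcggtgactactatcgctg
HIST2H2BE, chr1:149886633-149886932, minus strand: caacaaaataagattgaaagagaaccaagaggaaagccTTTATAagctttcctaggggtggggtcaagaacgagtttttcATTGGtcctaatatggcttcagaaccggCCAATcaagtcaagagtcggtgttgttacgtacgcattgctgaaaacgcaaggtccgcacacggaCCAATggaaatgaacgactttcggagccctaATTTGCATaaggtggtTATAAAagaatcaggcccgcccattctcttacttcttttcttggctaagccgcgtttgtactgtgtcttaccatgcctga
HIST1H1C, chr6:26056421-26056720, minus strand: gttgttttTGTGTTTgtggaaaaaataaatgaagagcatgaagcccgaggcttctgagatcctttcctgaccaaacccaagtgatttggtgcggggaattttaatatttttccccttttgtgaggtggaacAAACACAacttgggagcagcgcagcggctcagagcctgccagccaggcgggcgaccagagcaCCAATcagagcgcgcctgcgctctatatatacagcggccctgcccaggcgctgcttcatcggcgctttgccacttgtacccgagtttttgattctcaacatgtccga

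The octamer occurred in the windows of 3 of the 7 genes, namely HIST1H2BK, HIST2H2BE and HIST2H2AC, and in 1.77% of 35116 windows of all genes. The exact letters TATAAA occurred in 5 of 7 genes and in 11.5% of all windows, and the CCAAT box in 6 of 7 genes and in 34.6% of all windows. Close variants of these letters were not searched, so a gene without a match may still have such an element. HIST1H2BK and HIST1H2BD have 2 listed windows each, and only the first was used for the count by gene. The H1 box occurred in 2 of 7 genes, HIST1H1C and HIST2H2AC, against 5.64% of all windows. The HIST2H2AC match lay downstream of the annotated start. In the HIST1H4H window none of these letters was found. HIST2H2BE and HIST2H2AC start back to back on opposite strands with 235 bases between their start sites, so 265 bases of their windows are the same DNA and their octamer is a shared one. The HIST2H2AA3 window and that of HIST2H2AA4 were identical over the 299 bases that they have in common.

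The knockdown was checked first. The single probe annotated to TARDBP, ILMN_1677532, had raw intensities of 136, 84.0 and 96.5 on the siTARDBP arrays, against 265, 214 and 203 on the siLuc arrays. The groups lay apart, with a log2 difference of -0.98 (SE 0.11, limma adjusted p = 1.6e-05), and 1 of the 3 siTARDBP arrays did not exceed background. ILMN_3200717, annotated to the pseudogene TARDBPP3, differed by -2.23 (SE 0.093, limma adjusted p = 3.3e-10). It exceeded background on 2 of the 3 siTARDBP arrays, and whether it reads TARDBP itself was not tested. Across the 15193 probes that passed the filter, 1695 (11.2%) were called at a limma adjusted p under 0.05, 887 higher (5.84%) and 808 lower (5.32%) in siTARDBP. Background modes lay between 59.0 and 75.9 intensity units, lowest on replicate 2 of each group. Of the 13 probes for hepatocyte markers 3 were tested, those of ALB and SERPINA1, and of 6 for endothelial markers none exceeded background. For mesenchymal markers 9 of 13 probes were tested, and the 4 not tested were those of FN1 and COL1A1. For epithelial markers 2 of 5 probes were tested, those of EPCAM and KRT19. The KRT19 probe had mean raw intensities of 2333 in siTARDBP and 2156 in siLuc.

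None of the 8 histone probes were called by that rule, where 5.84% of all tested probes were called higher and 5.32% lower. In limma's moderated test 0 were called higher and 0 lower after Benjamini-Hochberg adjustment over all 15193 probes, and the lowest adjusted p was 0.10. At an unadjusted p under 0.05, 2 of the 8 were lower and 0 were higher, where 12.8% of all tested probes were lower and 12.6% higher. The log2 difference was negative for 6 of 8 probes, with a median of -0.15, against a median of -0.0039 over all tested probes, of which 50.9% were negative. The median of the 8 was -0.082 without siTARDBP replicate 1 and -0.078 without siLuc replicate 3. Leaving out siTARDBP replicate 3 gave -0.20 with 7 probes negative, and leaving out siLuc replicate 2 gave -0.20 with 6 negative. Without siTARDBP replicate 2 the median was -0.13 with 5 negative, and without siLuc replicate 1 it was -0.14 with 7 negative. It was -0.25 with 7 probes negative under median scaling over all probes, where the median of all tested probes was -0.087. The 3 siTARDBP arrays lay entirely under the 3 siLuc arrays for 3 of the 8 probes, where 15.2% of all tested probes did so, and entirely above them for 0, where 14.2% did so. In bulk RNA, fewer cells that hold a transcript and less of it per cell cannot be told apart.

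**Figure D1:**
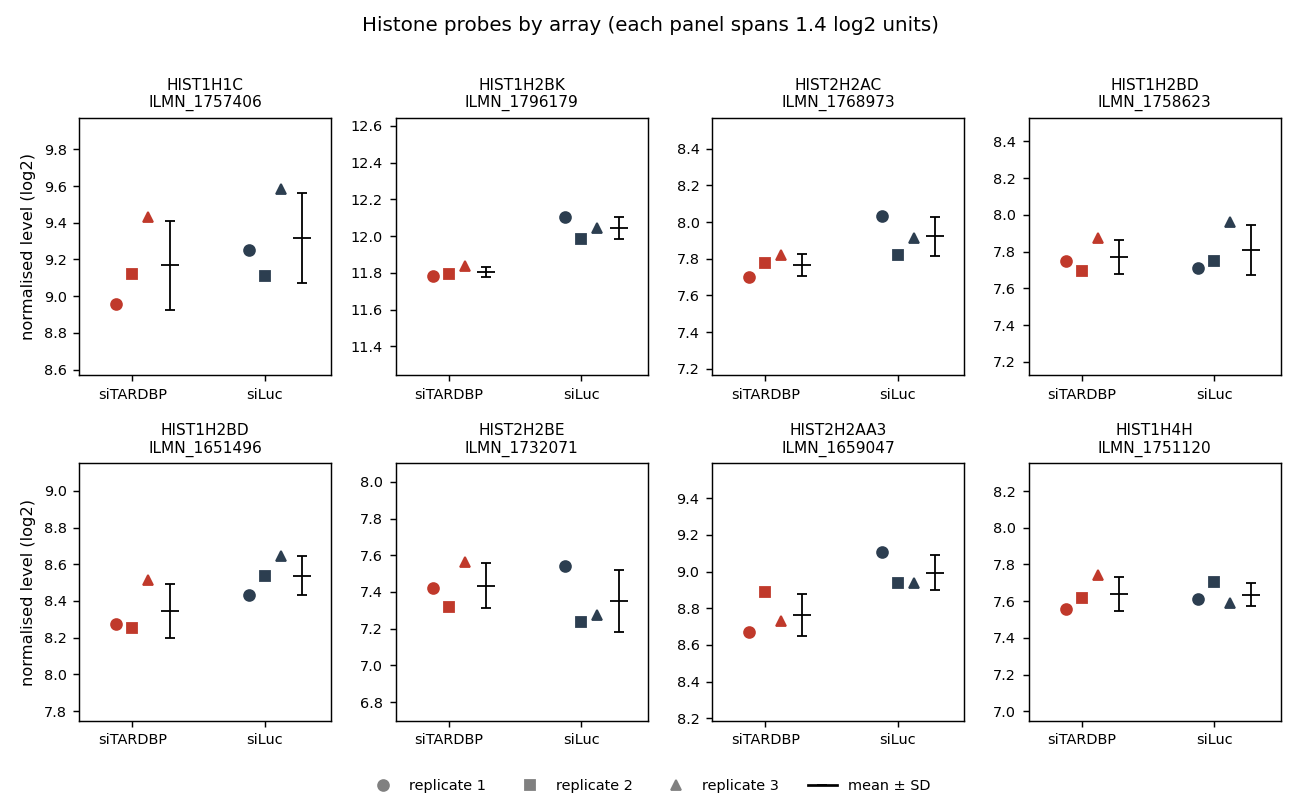
Normalised log2 levels of the 8 histone probes on each array, siTARDBP left and siLuc right in each panel, with points for replicates and bars for the mean ± SD (n = 3 each). The siTARDBP points lie under all siLuc points for HIST1H2BK, HIST2H2AC and HIST2H2AA3 and overlap them in the other 5 panels.

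The H2B genes encode a core histone that pairs with H2A in the nucleosome. HIST1H2BK, read by ILMN_1796179, had raw intensities of 3906, 3058 and 3210 on the siTARDBP arrays, against 4985, 3780 and 4664 on the siLuc arrays. After normalisation the levels were 11.78, 11.80 and 11.84 in siTARDBP and 12.10, 11.99 and 12.05 in siLuc on the log2 scale. The groups did not overlap, and replicates of a group differed by less than the distance between the groups. The log2 difference was -0.24 (95% confidence interval -0.43 to -0.048), a level 1.18-fold lower, with an unadjusted p of 0.017 and a limma adjusted p of 0.10. A second HIST1H2BK probe outside the 8, ILMN_1813314, gave a difference of -0.11 (95% confidence interval -0.34 to 0.11, limma adjusted p = 0.54), and its groups overlapped.

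HIST1H2BD was read by a pair of probes annotated to the same transcript. ILMN_1651496 had raw intensities of 346, 241 and 314 in siTARDBP, against 381, 330 and 412 in siLuc. Its highest siTARDBP array, replicate 3, lay above the lowest siLuc array after normalisation (8.52 against 8.43), and the difference of -0.19 (95% confidence interval -0.41 to 0.026) had a limma adjusted p of 0.26. ILMN_1758623 had 236, 162 and 202 in siTARDBP and 221, 183 and 249 in siLuc. Here the groups overlapped and the log2 difference was -0.035 (95% confidence interval -0.25 to 0.18, limma adjusted p = 0.87). Its sign turned without siTARDBP replicate 2 and without siLuc replicate 3.

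HIST2H2BE gave the highest difference of the 8 probes, and it is the H2B member of the back-to-back pair printed above. Its probe, ILMN_1732071, had raw intensities of 184, 122 and 163 in siTARDBP, against 194, 123 and 150 in siLuc. The groups overlapped, with a log2 difference of 0.084 (95% confidence interval -0.14 to 0.31, limma adjusted p = 0.67). It was 0.18 without siLuc replicate 1 and 0.14 without siTARDBP replicate 2, but 0.021 without siTARDBP replicate 3, 0.027 without siLuc replicate 2 and 0.045 without siLuc replicate 3. Its neighbour HIST2H2AC, an H2A gene read by ILMN_1768973, had 227, 173 and 194 in siTARDBP and 286, 194 and 241 in siLuc. After normalisation all 3 siTARDBP arrays lay under all 3 siLuc arrays, by 0.0020 log2 units at the nearest. The log2 difference was -0.16 (95% confidence interval -0.36 to 0.045) with a limma adjusted p of 0.33, and it was -0.10 without siLuc replicate 1. The intervals of these neighbours overlap, and a difference between their responses was not tested.

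HIST2H2AA3, the other H2A gene, was read by ILMN_1659047 with raw intensities of 462, 380 and 365 in siTARDBP, against 627, 442 and 504 in siLuc. The normalised levels did not overlap, at 8.67, 8.89 and 8.73 in siTARDBP and 9.10, 8.94 and 8.94 in siLuc. The log2 difference was -0.23 (95% confidence interval -0.44 to -0.023), with an unadjusted p of 0.032 and a limma adjusted p of 0.15. Between the arrays numbered 2, which had the lowest background of each group, the difference was -0.047. Between the group means of the arrays numbered 1 and 3 it was -0.32. Same-numbered arrays were not treated as pairs. A second probe of the gene, ILMN_2144426, gave -0.17 (limma adjusted p = 0.25), and the probe of the copy HIST2H2AA4, ILMN_3242900, gave -0.18 (limma adjusted p = 0.29). These 3 probes may share signal and are not independent readings.

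HIST1H1C encodes a linker histone, which binds the DNA that enters and leaves the nucleosome. Its probe, ILMN_1757406, had raw intensities of 567, 449 and 593 in siTARDBP and 693, 501 and 808 in siLuc. Of the 8 probes it varied most within the groups, with an SD of 0.24 on the log2 scale in siTARDBP and 0.24 in siLuc, and replicate 3 was the highest array of each group. The log2 difference was -0.15 (95% confidence interval -0.43 to 0.13, limma adjusted p = 0.52). Single arrays moved that value widely, to -0.011 without siLuc replicate 3, -0.041 without siTARDBP replicate 1, -0.25 without siLuc replicate 2 and -0.28 without siTARDBP replicate 3. HIST1H4H encodes the core histone H4. Its probe, ILMN_1751120, had 205, 153 and 185 in siTARDBP, against 206, 178 and 189 in siLuc. The groups overlapped, and the log2 difference was 0.0030 (95% confidence interval -0.20 to 0.20, limma adjusted p = 0.99).

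The confidence intervals bound what these arrays could have missed. Over the 8 probes the lower ends of the 95% intervals reached from -0.44 to -0.14, and the upper ends from -0.048 to 0.31. For HIST2H2AA3 the lower end corresponds to a level 1.35-fold lower in siTARDBP, and for HIST2H2BE the upper end corresponds to a level 1.24-fold higher. With single arrays left out these ends reached as far as -0.57 for HIST1H1C, without siTARDBP replicate 3 and without siLuc replicate 2, and 0.41 for HIST2H2BE (1.33-fold higher), without siLuc replicate 1. Under median scaling over all probes the lower ends reached -0.66 for HIST1H2BK (1.58-fold lower) and -0.63 for HIST2H2AA3 (1.54-fold lower). The upper end for HIST2H2BE was 0.32 under that scaling, where the median of all tested probes was -0.087. These bounds are on the scale of the normalised values, where background correction with an offset compresses the changes of dim probes. Of the 2 probes with an unadjusted p under 0.05, that of HIST1H2BK lost it only without siLuc replicate 1. That of HIST2H2AA3 lost it without siLuc replicate 1, without siTARDBP replicate 1 and without siTARDBP replicate 3.

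**Figure D2:**
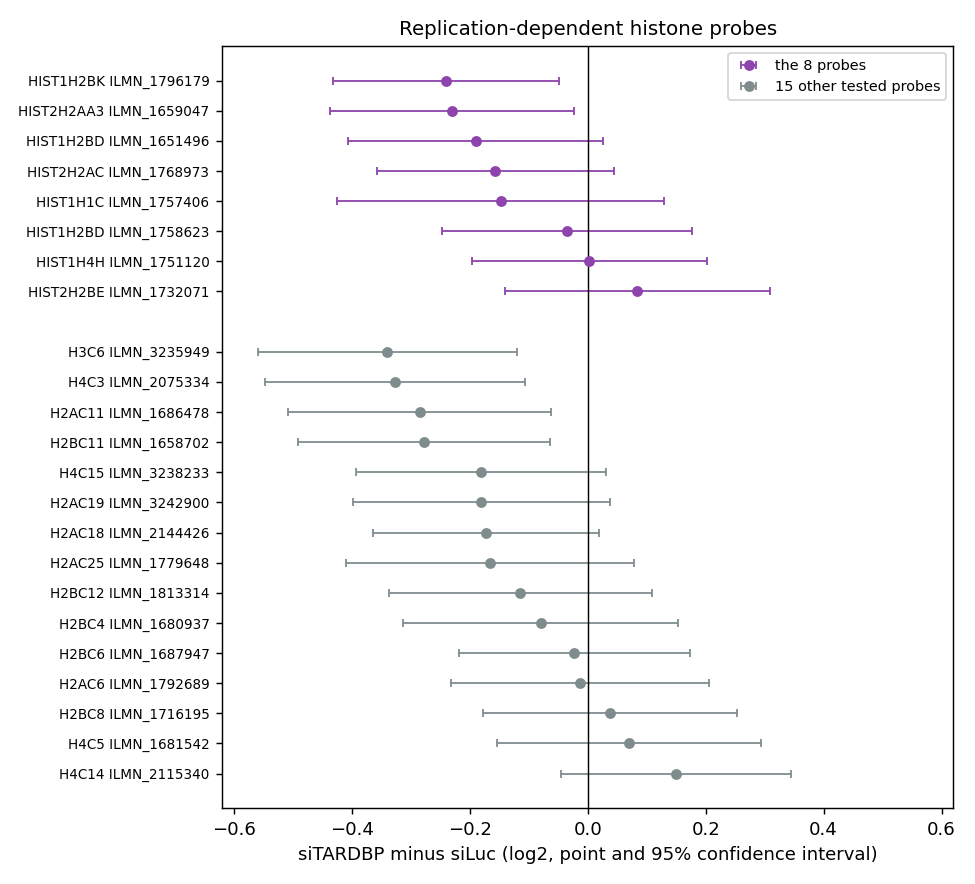
Log2 differences, siTARDBP minus siLuc, with 95% confidence intervals for the 8 histone probes (purple) and the 15 other tested probes of replication-dependent histone genes (grey). Of the 8 probes, 6 lie left of 0 and the intervals of HIST1H2BK and HIST2H2AA3 end just under it. The grey H2AC11 probe exceeded background on 0 siTARDBP arrays.

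Of the 15 tested probes for other replication-dependent histone genes, 0 were called higher and 1 was called lower in limma's test with Benjamini-Hochberg adjustment. Over all tested probes 5.84% were called higher and 5.32% lower. The differences of the 15 reached from -0.34 to 0.15 with a median of -0.17, and 12 of 15 were negative, where 50.9% of all tested probes were. The 15 include the H2AC11 probe ILMN_1686478, which exceeded background on 0 siTARDBP and 3 siLuc arrays and was tested only through siLuc. Without it 11 of 14 were negative, with a median of -0.14, a tally added after the values were seen. The probe called lower was that of H3C6 (HIST1H3E), a core histone H3 gene, with raw intensities of 93.6, 85.6 and 80.2 in siTARDBP and 133, 97.6 and 119 in siLuc. Its log2 difference was -0.34 (SE 0.10, limma adjusted p = 0.044), but it exceeded background on only 1 siTARDBP and 2 siLuc arrays, and 11 of 18 alternative settings ended the call, among them leaving out any single array other than siTARDBP replicate 2. The list holds the second probes of HIST1H2BK and HIST2H2AA3 named above.

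Most genes for replication-independent variants give polyadenylated mRNA and are not tied to DNA synthesis. The list also holds CENPA, which is made late in the cell cycle, and H2AX, whose gene also gives a stem-loop mRNA. Of 15 tested probes 3 rose and 0 fell, where 5.84% of all tested probes rose and 5.32% fell. The 3 that rose were all probes of MACROH2A1 (H2AFY), which encodes an H2A variant with a large extra domain that is linked to silent chromatin. ILMN_1746171 had raw intensities of 1809, 1084 and 1213 in siTARDBP, against 743, 531 and 729 in siLuc, and its log2 difference was 1.16 (SE 0.10, limma adjusted p = 2.8e-06). The groups lay far apart relative to the spread of the replicates. The other tested MACROH2A1 probes rose by 0.68 (ILMN_1674034, SE 0.098, limma adjusted p = 0.00021) and 0.63 (ILMN_2373495, SE 0.098, limma adjusted p = 0.00045). All 3 kept their call in each of the 19 alternative settings. The median over the 15 probes was 0.083.

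**Figure D3:**
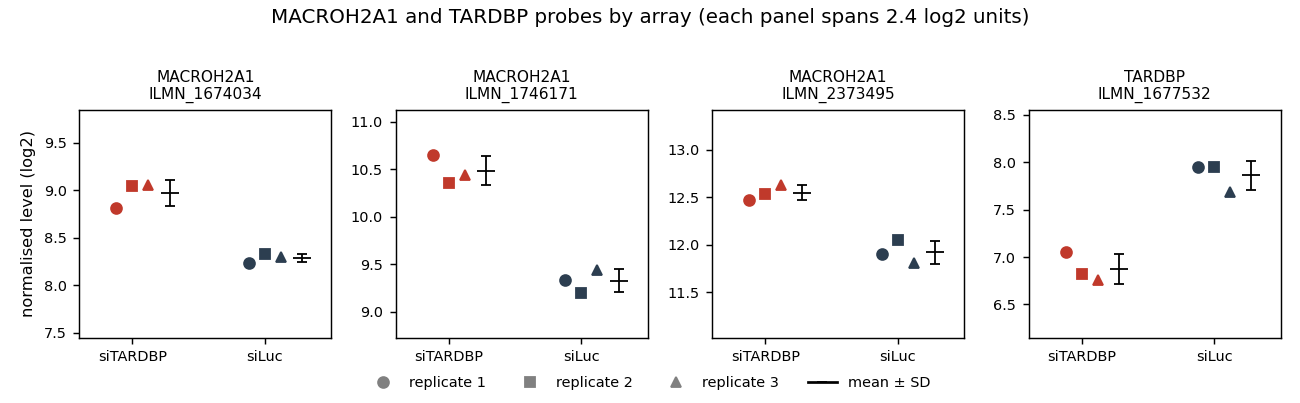
Normalised log2 levels of the 3 tested MACROH2A1 probes and of the TARDBP probe on each array, siTARDBP left and siLuc right, with the mean ± SD (n = 3 each). For each MACROH2A1 probe all siTARDBP points lie above all siLuc points, and for TARDBP all lie below.

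Genes that make and end histone mRNA were followed as a pair of lists. Of 23 tested probes for 3′ end processing and decay, 1 rose and 0 fell, with a median difference of -0.011, where 5.84% of all tested probes rose and 5.32% fell. SLBP gave 0.085 (limma adjusted p = 0.67) and 0.14 (limma adjusted p = 0.38) by its 2 probes. The probe that rose was that of SYMPK, a scaffold of the cleavage complex, by 0.31 (SE 0.094, limma adjusted p = 0.042), a call that 9 of 19 alternative settings ended, among them leaving out any single array. Of 11 tested probes for histone gene transcription, 0 were called in either direction by limma and 0 had an unadjusted p under 0.05. NPAT, the coactivator of histone genes in S phase, gave 0.090 (limma adjusted p = 0.59). Its probe exceeded background on only 2 siTARDBP arrays and 1 siLuc array.

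Histone chaperones, which hand histones to DNA, had 2 of 12 tested probes lower and 0 higher, where 5.32% of all tested probes were lower and 5.84% higher. The 2 were ASF1B, which fell by 0.44 on the log2 scale (SE 0.10, limma adjusted p = 0.0095), and CHAF1B, a subunit of the replication-coupled assembly factor, which fell by 0.33 (SE 0.092, limma adjusted p = 0.027). Leaving out siLuc replicate 1 ended the ASF1B call, at an adjusted p of 0.051, and leaving out any single array other than that one ended the CHAF1B call.

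Among DNA replication genes 8 of 27 tested probes fell and 0 rose, with a median of -0.10, where 5.32% of all tested probes fell and 5.84% rose. At an unadjusted limma p under 0.05, 10 of the 27 were lower and 2 higher, where 12.8% of all tested probes were lower and 12.6% higher. CDT1, which licenses replication origins, fell by 0.53 (SE 0.094, limma adjusted p = 0.0014), and FEN1, a flap endonuclease, fell by 0.42 by ILMN_2160929 (SE 0.099, limma adjusted p = 0.010). The other FEN1 probe, ILMN_1755834, gave -0.099 (limma adjusted p = 0.62), and its groups overlapped. The clamp loader subunit RFC3 fell by 0.38 and 0.37 by its 2 tested probes (limma adjusted p = 0.031 and 0.017). The FEN1 call ended without siTARDBP replicate 1 and without siLuc replicate 2, and both RFC3 calls ended without siTARDBP replicate 3 and without siLuc replicate 2. The count of 8 was 2 without siTARDBP replicate 1, 6 without siTARDBP replicate 2 and 2 without siTARDBP replicate 3. It was 5 without siLuc replicate 1, 2 without siLuc replicate 2 and 4 without siLuc replicate 3. In the growth arrest list, 2 of 12 tested probes rose and 0 fell, where 5.84% of all tested probes rose and 5.32% fell. Those that rose were the 2 probes of the cyclin-dependent kinase inhibitor CDKN1B, at 0.49 (limma adjusted p = 0.0038) and 0.31 (limma adjusted p = 0.049). The first of these calls ended in 2 of 19 alternative settings, median scaling over all probes (adjusted p = 0.11) and the 4 arrays with the higher background (adjusted p = 0.078), and the second in 15 of 19. The part of these changes in the histone values was not tested.

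**Figure D4:**
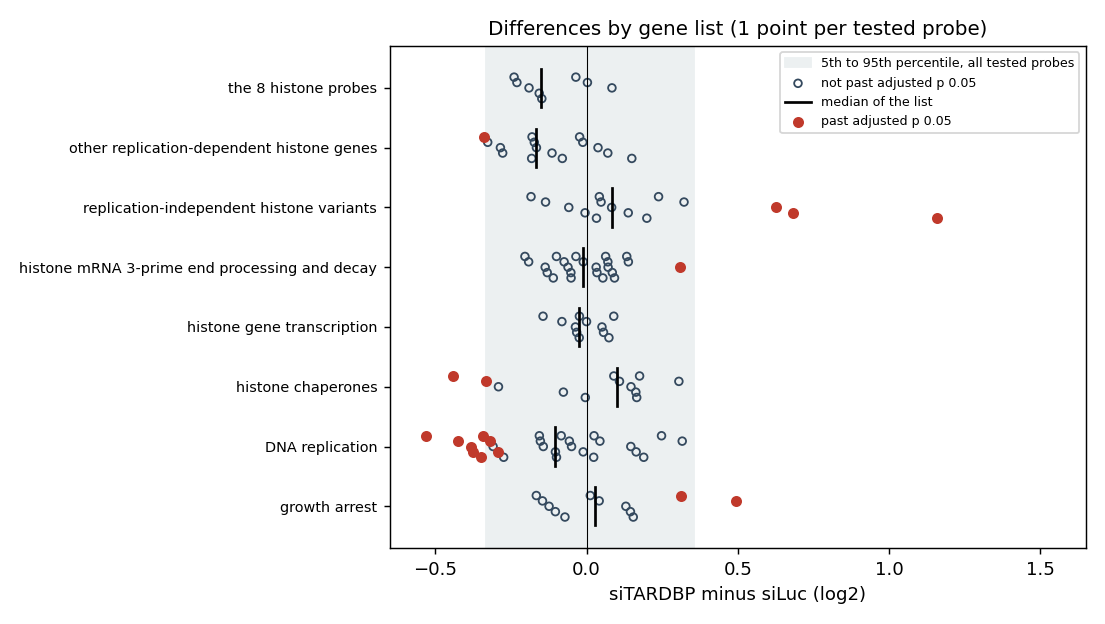
Log2 differences, siTARDBP minus siLuc, by gene list with a point per tested probe, filled where past an adjusted p of 0.05, a bar at each list's median and a band from the 5th to the 95th percentile of all tested probes (-0.33 to 0.36). All 8 histone probes lie inside the band and are open, while the 3 MACROH2A1 probes lie right of it.

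The probes most like the 8 in pattern were found from the mean of their standardised levels over the 6 arrays. Among 12297 other tested probes with a single gene symbol, those of DDX50, MED7, ATG4A, TFAP2A and PEX6 had the highest Pearson's r, between 0.986 and 0.992. These are the highest of very many values over 6 arrays, which share the group difference, and they are given as a description. The mean profile was lowest on siTARDBP replicates 1 and 2, at -0.90 and -0.62, while siTARDBP replicate 3, at 0.37, lay among the siLuc arrays at 0.54, 0.014 and 0.59.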

How the data were processed

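Total RNA of 6 SK-Hep1 samples was labelled and hybridised to Illumina HT-12 bead arrays. The deposited table holds linear probe intensity values, not normalised between arrays, exported by the authors from BeadStudio, per the labels and the submitters' processing notes. The authors' series value table holds log2 values with a single distribution in every column (median 6.12), and its columns follow the log2 of the same arrays' intensities (r between 0.9987 and 0.9997). It served as an alternative. Any background subtraction is not given in the sources used here. Gene names come from GEO's platform annotation, updated through Entrez identifiers, in which 30113 of 47231 probes have 1 symbol, 8 have several and 17110 have none.

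Background was corrected by normexp without negative controls (offset 50), arrays were quantile-normalised, and siTARDBP was compared with siLuc on log2 values by limma (R 4.3.3, limma 3.58.1) with no block and Benjamini-Hochberg adjustment over the tested probes. A probe was tested if it exceeded, on at least 3 of 6 arrays, the level under which 95% of a background mirrored about the mode of the dim peak would lie. The procedure was tested on simulated arrays. The number of arrays limits the precision. The probes, the gene lists and the rule for named genes (the 8 probes, TARDBP, other probes of the same genes, up to 4 called probes per list, SLBP, NPAT and the 5 probes of most similar pattern) were chosen with earlier results of these data known. Deviations of same-numbered arrays correlated by 0.11, 0.10 and -0.0025, and no pairing was used.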

Additional observations from a re-analysis of the deposited data

How the results depend on the processing

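In each of 19 alternatives 0 of the 8 histone probes were called higher and 0 lower, and the lowest adjusted p of any of them was 0.075, for HIST1H2BK with trended and robust eBayes. Differences of 6 probes kept their sign throughout. Those of HIST1H2BD (ILMN_1758623) became 0.0040 without siTARDBP replicate 2 and 0.042 without siLuc replicate 3, in a range of -0.089 to 0.042 over single arrays left out. Those of HIST1H4H (ILMN_1751120) became -0.055 under median scaling over all probes, -0.048 without siTARDBP replicate 3, -0.0090 without siLuc replicate 1 and -0.020 without siLuc replicate 3, in a range of -0.048 to 0.042. The SLBP probe ILMN_1753353 became -0.022 under median scaling over all probes, which shifted the median of all tested probes to -0.087 and left 27.8% of called probes higher, against 52.3%. That setting called 1016 probes, and the 4 arrays with the higher background 830, from fewer samples. When single arrays were dropped in turn, between 956 and 1786 probes were called, where 1695 were called with all 6. With the replicate block 1734 probes were called, and 0 of the 8 histone probes. The causes were not tested. DNA replication calls fell to 5 under median scaling over all probes, 5 with no filter and 1 in the 4 arrays with the higher background. The 2 growth arrest calls became 0 under that scaling and in those 4 arrays.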

Other observations

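H4C3 (HIST1H4C), a core histone H4 gene outside the 8 probes, was singled out after its values were seen. Its probe ILMN_2075334 had raw intensities of 12751, 12575 and 12673 in siTARDBP, against 18060, 14051 and 17809 in siLuc. The groups lay apart after normalisation, with a log2 difference of -0.33 (SE 0.10, limma adjusted p = 0.053), so it missed the threshold, which it passed in 3 of 19 alternatives, and its sign was negative in all 19.

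Of the mesenchymal marker probes, 3 of 9 tested were called higher and 0 lower, where 5.84% of all tested probes were called higher and 5.32% lower. CAV1, a coat protein of caveolae, rose by 0.62 by ILMN_1687583 (limma adjusted p = 0.00061) and by 0.36 by ILMN_2149226 (limma adjusted p = 0.032, a call that 9 of 19 alternative settings ended), and the hyaluronan receptor CD44 rose by 0.69 by ILMN_2348788 (limma adjusted p = 0.00025). The other 2 CD44 probes gave 0.13 (limma adjusted p = 0.50) and 0.099 (limma adjusted p = 0.61). THY1 went the other way, at -0.23 (limma adjusted p = 0.15), and its groups lay apart. The VIM probes gave 0.0035 and 0.045 (limma adjusted p = 0.99 and 0.82), and SPARC gave 0.11 (limma adjusted p = 0.50).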
